A study of Homo sapiens with 6 samples.

Results

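The genes described here are 10 of the protein-coding genes that mouse mitochondria carry in their own DNA, namely mt-Nd1 (ENSMUSG00000064341), mt-Nd2 (ENSMUSG00000064345), mt-Nd4 (ENSMUSG00000064363), mt-Nd5 (ENSMUSG00000064367), mt-Nd6 (ENSMUSG00000064368), mt-Cytb (ENSMUSG00000064370), mt-Co1 (ENSMUSG00000064351), mt-Co2 (ENSMUSG00000064354), mt-Co3 (ENSMUSG00000064358) and mt-Atp6 (ENSMUSG00000064357). They were taken by Ensembl ID from a table of 77134 mouse gene rows in 6 libraries, and all 10 were found and passed the filter on low counts, as did 12637 rows in all. The libraries came from 3 HIF1A-AS3 overexpression tumours and 3 vector control tumours, each grown under the skin of nude mice (BALB/c, which lack a thymus) from transplanted cells of A549, a human lung adenocarcinoma line. The overexpressing cells were a stable line made with the lentiviral vector pLV-CMV-HIF1A-AS3-EGFP-Neo, and the control cells one made with pLV-CMV-EGFP-Neo, so both carried EGFP and Neo. HIF1A-AS3 is a human RNA antisense to HIF1A, the gene of a subunit of the hypoxia-inducible factor. The sources used here do not state the age of the mice or whether a line was 1 clone or a pool. Nor do they say that each tumour had its own mouse, so p-values reflect only how these tumours varied, which may be technical.

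All rows carried mouse IDs, so the values describe the RNA of host cells and whatever human RNA the authors' counting assigned to mouse rows. Mitochondrial RNA of the A549 cells was not analysed here, and its part in the mouse values was not tested. The table pairs no ID with a name. The labelled tissue could therefore not be checked against marker genes, nor the overexpressed RNA against the labels, and the nuclear partners of these genes and the markers of host cell types were not analysed here. In bulk tumours, fewer cells of a type and less RNA per cell cannot be told apart.

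The respiratory chain pumps protons across the inner mitochondrial membrane as electrons pass from NADH to oxygen, and ATP synthase uses the returning protons to make ATP. The mt-Nd genes encode core subunits of complex I, the NADH dehydrogenase. mt-Cytb encodes cytochrome b of complex III. mt-Co1, mt-Co2 and mt-Co3 encode the core of cytochrome c oxidase, complex IV, which hands the electrons to oxygen, and mt-Atp6 encodes a subunit of the proton path of ATP synthase, complex V. All of them are cut from long transcripts that span much of the circular genome, and among them mt-Nd6 alone is encoded on the light strand, so that its RNA runs antisense to that of the other genes. Hypoxia-inducible factor is known to lower mitochondrial respiration in many cells.

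The 6 libraries held 4167784 to 4769157 estimated counts. In overexpression tumours, 17356, 18753 and 18842 genes had at least 1 count (replicates 1, 2 and 3), against 18922, 18758 and 19010 in control tumours 1, 2 and 3. The scaling factor from TMM, a method that removes differences in library composition, was 0.742 in overexpression tumour 1 and 1.02 to 1.10 in the other 5. Levels below are in CPM, counts divided by the effective library size (the total of the tested genes times this factor) and put on a common scale, so the same number of counts gives a higher CPM in overexpression tumour 1 than in the rest.

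The counts on the mouse mitochondrial genes were uneven across the overexpression tumours and, in sum, far more even across the control tumours. No member passed the threshold in the tests of single genes below, and no p is given for the summed share. Together the 10 genes held 0.912% of all estimated counts in overexpression tumour 1 (95% Wilson interval 0.904% to 0.921%), 0.998% in tumour 2 (0.989% to 1.01%) and 2.43% in tumour 3 (2.42% to 2.45%). In control tumours they held 1.50% (1.49% to 1.51%), 1.67% (1.65% to 1.68%) and 1.46% (1.45% to 1.47%) for tumours 1, 2 and 3. Overexpression tumours 1 and 2 thus lay below every control and overexpression tumour 3 above every control, each by far more than counting error, which is all that these intervals cover.

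The mean share was 1.45% ± 0.855 in overexpression tumours and 1.54% ± 0.109 in control tumours (SD, n = 3 each). The difference of -0.0949 percentage points was smaller than the spread between overexpression tumours, and it was 0.107 percentage points, the other way, with TMM-scaled library sizes as the denominator. The highest share was 2.67 times the lowest among overexpression tumours and 1.14 times the lowest among control tumours. Without overexpression tumour 3 the difference in share was -0.588 percentage points, without tumour 1 it was 0.173 and without tumour 2 it was 0.130, so single tumours set its sign. Without control tumour 2 it was -0.0328.

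**Figure D1:**
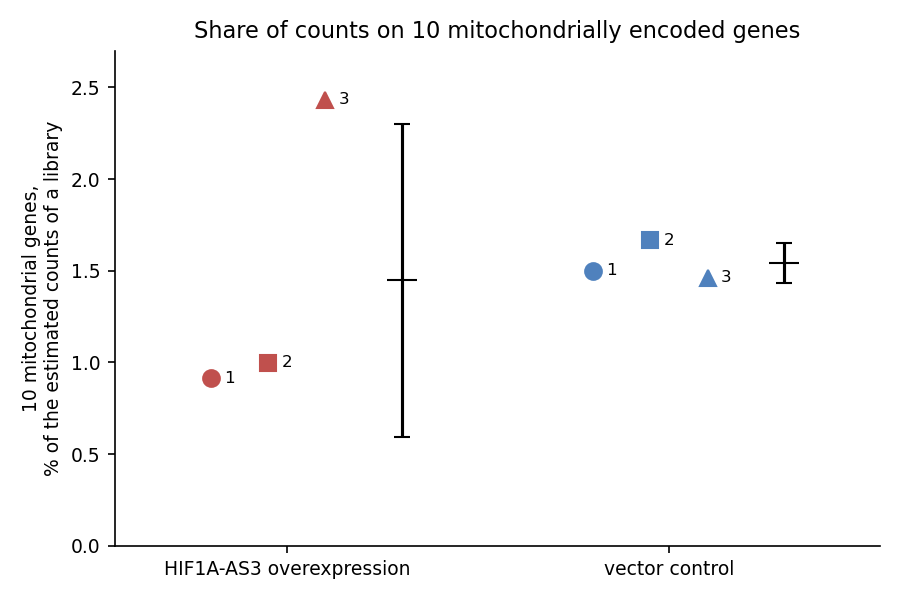
Percentage of the estimated counts of each library that fell on the 10 mitochondrial genes (vertical axis), by group; symbols are tumours with their replicate number, and the bar beside each group is the mean ± SD of 3 tumours. Overexpression tumours 1 and 2 sit at 0.912% and 0.998% and tumour 3 at 2.43%, on either side of the controls at 1.46% to 1.67%.

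Among the complex I genes, mt-Nd5, a proton-pumping subunit, had 374, 410 and 1122 CPM in overexpression tumours 1, 2 and 3, against 770, 851 and 760 CPM in control tumours 1, 2 and 3. Overexpression tumours 1 and 2 were well below every control and tumour 3 above, so the groups overlapped. mt-Nd6, the gene of the other strand, had 74.1, 62.0 and 194 CPM in overexpression tumours 1, 2 and 3, against 137, 179 and 122 CPM in control tumours 1, 2 and 3. It followed the same order. The sources used here do not say whether the counting used strand, so reads of RNA antisense to mt-Nd6 cannot be told apart from it. The poly(A) tail that other mitochondrial mRNAs carry is lacking on this one in human cells, and how RNA was selected for these mRNA libraries is not given either.

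mt-Nd2 had 470, 417 and 1048 CPM in overexpression tumours 1, 2 and 3, against 643, 785 and 610 CPM in control tumours 1, 2 and 3. mt-Nd4 had 939, 877 and 2347 CPM in overexpression tumours, against 1293, 1515 and 1282 CPM in control tumours, in the same order of replicates. Both, like mt-Nd5 and mt-Nd6, were below the controls in overexpression tumours 1 and 2 and above them in tumour 3. mt-Nd4 overlaps mt-Nd4l in the genome, so its reads could be split with that gene. mt-Nd1, which lies where quinone enters complex I, had 1485, 1067 and 2842 CPM in overexpression tumours 1, 2 and 3, against 1473, 1664 and 1417 CPM in control tumours 1, 2 and 3. Here, in CPM, overexpression tumour 1 lay within the control range and only tumour 2 below it. As a share of all estimated counts, without TMM, mt-Nd1 held 0.110%, 0.109% and 0.289% in overexpression tumours 1, 2 and 3. In control tumours 1, 2 and 3 it held 0.161%, 0.177% and 0.155%. On that scale overexpression tumours 1 and 2 were both below every control, as for the other complex I genes.

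In complex III, mt-Cytb had 1591, 1295 and 3409 CPM in overexpression tumours 1, 2 and 3, against 1733, 1973 and 1781 CPM in control tumours 1, 2 and 3. In complex IV, mt-Co1, which holds the site where oxygen is reduced, had 4820, 4141 and 9310 CPM in overexpression tumours, against 6049, 6861 and 5730 CPM in control tumours, in the same order of replicates. Both genes kept the pattern of mt-Nd2, mt-Nd4, mt-Nd5 and mt-Nd6, with overexpression tumours 1 and 2 below every control and tumour 3 above.

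The other genes of complex IV and the ATP synthase gene departed from it. mt-Co3 had 1325, 598 and 1170 CPM in overexpression tumours 1, 2 and 3, against 784, 701 and 548 CPM in control tumours 1, 2 and 3. In CPM, overexpression tumour 1, low in most members, was thus the highest of all 6. As a share of all estimated counts, without TMM, mt-Co3 held 0.0978%, 0.0609% and 0.119% in overexpression tumours 1, 2 and 3. In control tumours 1, 2 and 3 mt-Co3 held 0.0856%, 0.0743% and 0.0598%. Overexpression tumour 3 was then the highest, and tumour 1 was still above every control. mt-Atp6, which overlaps mt-Atp8 in the genome, had 1178, 686 and 2305 CPM in overexpression tumours, against 668, 1168 and 979 CPM in control tumours, in the same order of replicates. In CPM, overexpression tumour 3 was the highest, while tumour 2 lay within the control range and tumour 1 barely above it. As a share of all estimated counts, mt-Atp6 in overexpression tumour 1 lay within the control range, at 0.0869%. In overexpression tumour 2 its share was 0.0699%, below the lowest control, control tumour 1 at 0.0730%. mt-Co2, which takes up electrons from cytochrome c, had 99.98, 238 and 167 CPM in overexpression tumours 1, 2 and 3, against 192, 18.8 and 153 CPM in control tumours 1, 2 and 3. Control tumour 2 stood far below the rest, with 82.8 estimated counts, although it was the control with the highest share of counts on the 10 genes together.

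**Figure D2:**
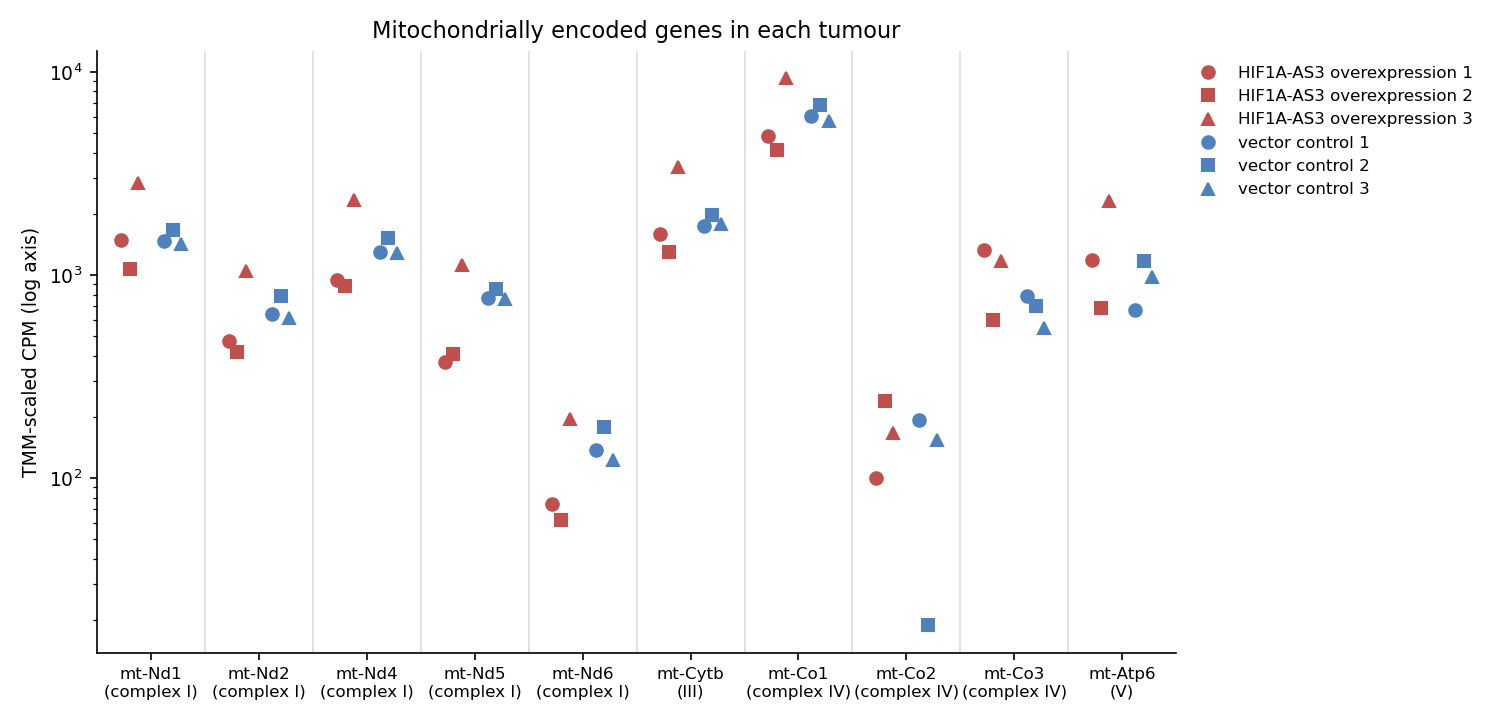
TMM-scaled CPM (vertical log axis) of the 10 mitochondrial genes in each tumour, with overexpression tumours left of control tumours for each gene and symbols giving the replicate. For mt-Nd1, mt-Nd2, mt-Nd4, mt-Nd5, mt-Nd6, mt-Cytb, mt-Co1 and mt-Atp6 the triangle of overexpression tumour 3 is the highest point; mt-Co2 in control tumour 2, at 18.8 CPM, is the lowest point of all.

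Counted over the genes, overexpression tumour 3 was the highest of the 6 libraries in 8 of 10 members, an order found in 19.0% of all genes tested. In 6 of 10 members (mt-Nd2, mt-Nd4, mt-Nd5, mt-Nd6, mt-Cytb and mt-Co1) overexpression tumours 1 and 2 were below every control and tumour 3 above every control, against 2.98% of all genes tested. This order was noticed in the values and then counted. The members other than mt-Nd6 share transcripts, and mt-Nd6 lies on the same circular genome, so the members are not independent examples of it. Both counts were made in CPM and depend on the scaling. As a share of all estimated counts, mt-Co3 too was highest in overexpression tumour 3. On that scale mt-Nd1 too had overexpression tumours 1 and 2 below every control and tumour 3 above. All genes were not counted on that scale. The spread between the highest and the lowest tumour, on the log2 CPM scale, had a median over the members of 1.41 in overexpression tumours and 0.31 in control tumours. Over all genes tested the median was 0.72 in overexpression tumours and 0.39 in control tumours. Among the 1378 genes with a mean CPM at or above that of the lowest member it was 0.70 in overexpression tumours and 0.22 in control tumours. Control tumours had the smaller spread in 9 of 10 members, mt-Co2 being the exception, and in 76.2% of all genes tested.

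How far each gene followed the others was measured as the root mean square difference, over the 6 libraries, between its centred log2 CPM and that of the sum of the other members. It was lowest for mt-Cytb at 0.071 and mt-Nd1 at 0.086, and it lay between 0.12 and 0.14 for mt-Co1, mt-Nd2 and mt-Nd4. For mt-Nd5 and mt-Nd6 it was 0.33 each, for mt-Atp6 0.35, for mt-Co3 0.49 and for mt-Co2 1.36. mt-Co1 held 38.9% to 44.0% of the counts of the 10 genes, so for the others this is largely likeness to mt-Co1. Against the sum of all 10, of which members are part, the median was 0.22 over the members. Over 8522 other genes with at least 10 CPM it was 0.49, and 1.70% of them were at or below the members' median. The pair whose log2 ratio varied least was mt-Nd2 and mt-Nd4, with an SD of 0.075 over the 6 libraries, and the pair that varied most was mt-Co2 and mt-Nd6, at 1.71.

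The estimates of most members were not whole numbers. Of the 60 member estimates, 4 were whole numbers to within 0.0005, all for mt-Nd2, against 35.8% of estimates of genes with at least 50 counts in some library. Those genes were not matched to the members in their counts, so the shares are not like for like. Estimates that are not whole arise when an estimator divides reads between gene rows. How many reads were divided was not measured, and it could be few. What part such division had in the values of mt-Co2, mt-Co3 and mt-Atp6 was not tested, as mouse sequences were not used here.

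Setting overexpression against control tumours asks whether raising HIF1A-AS3 in the tumour cells went along with another level of these genes. None of the 10 members passed the threshold in edgeR's quasi-likelihood test (Benjamini-Hochberg adjusted p below 0.05 over all genes), where 0.0158% of the 12637 genes did. At an unadjusted p below 0.05 the count was also 0 of 10, against 6.29% of all genes. DESeq2 and limma-voom, run on the same genes, each called 0 of 10, against 0.222% of all genes with DESeq2 and 0.0554% with limma-voom. The groups overlapped in all 10 members, while 13.2% of all genes tested had groups that did not overlap. The members' median log2 fold change was 0.11 and that of all genes 0.0065. Of the members, 4 had a negative value, and so had 49.4% of all genes.

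The smallest p belonged to mt-Co3, at 1031 ± 383 CPM in overexpression tumours and 677 ± 120 CPM in control tumours (SD, n = 3 each). On the log2 scale it differed by 0.61 (standard error 0.33), at an adjusted p of 0.70 in edgeR, and by 0.34 with library totals only, without TMM. mt-Nd6 had the lowest fold change, -0.40 with a standard error of 0.42, from 110 ± 73.0 CPM in overexpression tumours and 146 ± 29.4 CPM in control tumours (SD, n = 3 each). For mt-Co1 the log2 fold change was -0.03, with a 95% interval of -0.89 to 0.83, not adjusted for the number of genes. A fold change anywhere from 0.540 to 1.78 in mt-Co1 was therefore within reach of these data, and the level could not be said to be the same in both groups. The interval of mt-Nd5 ran from -1.30 to 0.66, that of mt-Cytb from -0.69 to 1.09, and the widest, of mt-Co2, from -1.24 to 2.18.

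The fold changes moved with single tumours. Without overexpression tumour 3 the median over the members became -0.41, where that of all genes was -0.0017, and 8 of 10 members had a negative value. mt-Nd6 stood at -1.10 (adjusted p 0.64 in edgeR), mt-Nd5 at -1.02, mt-Nd2 at -0.62 and mt-Nd4 at -0.59. These 4 had an unadjusted p below 0.05 in edgeR, against 7.3% of all genes in that fit, and 0 of 10 passed the adjusted threshold, as did 0% of all genes. Without overexpression tumours 1 and 2 in turn, mt-Nd6 stood at -0.22 and -0.12, and mt-Nd5 at -0.084 and -0.082. Without overexpression tumour 2 the members' median was 0.23, and mt-Co3 at 0.88 and mt-Atp6 at 0.89 had an unadjusted p below 0.05 in edgeR, against 20.5% of all genes in that fit. Without overexpression tumour 1 the median was 0.27 and mt-Co3 stood at 0.35. Leaving out overexpression tumour 3 turned the sign of mt-Nd1 (-0.25), mt-Cytb (-0.34), mt-Nd4 and mt-Atp6 (-0.0091), and leaving out any one of overexpression tumour 1, overexpression tumour 2 or control tumour 2 turned that of mt-Nd2 and mt-Co1. Leaving out control tumour 2 also turned that of mt-Co2 (-0.034), and leaving out control tumour 1 or 3 that of mt-Nd4 (-0.0098 and -0.016).

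**Figure D3:**
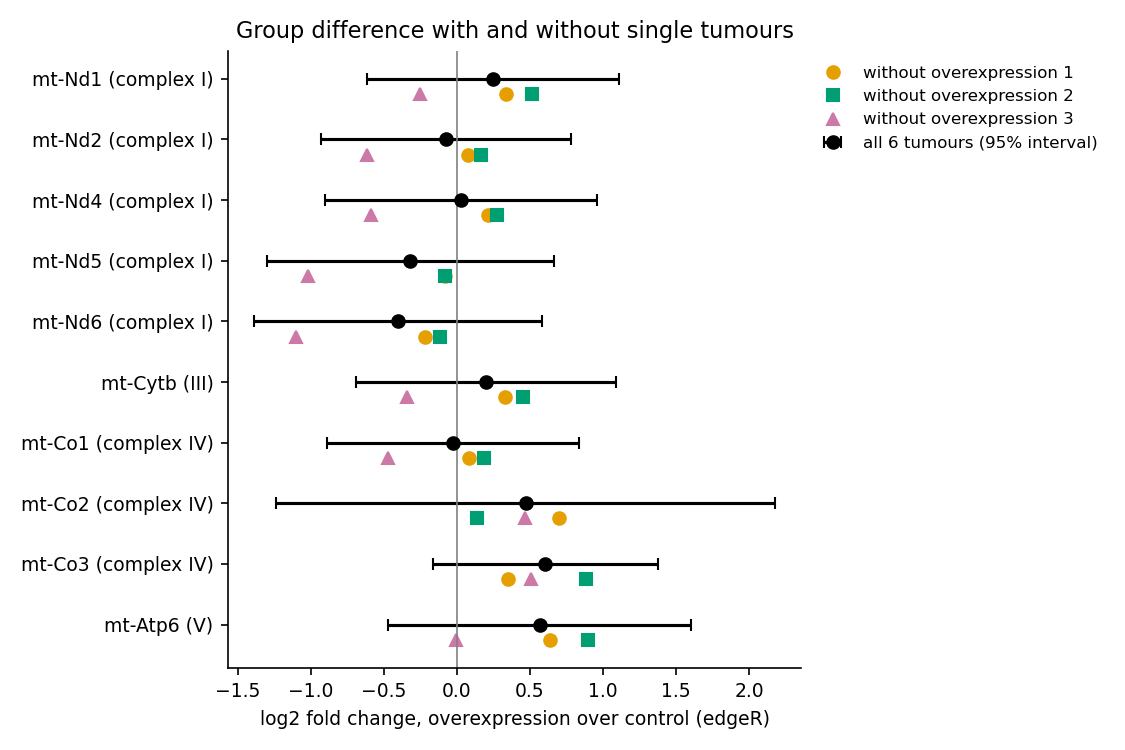
Log2 fold change of overexpression over control tumours (horizontal axis, edgeR) for each mitochondrial gene; black points with 95% intervals use all 6 tumours, and coloured symbols leave out 1 overexpression tumour each. Every black interval crosses 0, and the triangles without overexpression tumour 3 lie left of 0 for all members but mt-Co2 at 0.47 and mt-Co3 at 0.51.

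Ratios within the 10 genes do not depend on how libraries are scaled. Within them, the groups did not overlap for 5 genes, 1 higher and 4 lower in overexpression tumours. Of all genes tested, 3.81% had a ratio to the sum of the 10 genes that did not overlap. Most of those genes vary apart from the sum, whereas the members are part of it, so the 2 shares are not like for like. With 3 tumours against 3, a two-sided exact permutation test cannot give a p below 0.1. The members were also chosen with earlier results of these data known, so no p is given for these ratios.

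mt-Nd5 took 3.03%, 4.19% and 4.69% of the counts of the 10 genes in overexpression tumours 1, 2 and 3, against 5.60%, 5.41% and 5.68% in control tumours 1, 2 and 3. Its share was thus lower in each overexpression tumour than in each control, also in tumour 3, where its CPM was the highest of the 6. The means were 3.97% ± 0.854 in overexpression tumours and 5.56% ± 0.137 in control tumours (SD, n = 3 each). Set against mt-Nd1 alone, a ratio picked after the values were seen, mt-Nd5 had 0.252, 0.384 and 0.395 counts per count of mt-Nd1 in overexpression tumours 1, 2 and 3. In control tumours 1, 2 and 3 it had 0.523, 0.511 and 0.536.

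mt-Nd6 took 0.600%, 0.633% and 0.812% of the counts of the 10 genes in overexpression tumours 1, 2 and 3, against 0.994%, 1.14% and 0.912% in control tumours 1, 2 and 3. The means were 0.682% ± 0.114 in overexpression tumours and 1.01% ± 0.114 in control tumours (SD, n = 3 each), a difference of -0.333 percentage points. It was lower in each overexpression tumour than in each control, with overexpression tumour 3 closest to the controls. Per count of mt-Nd5, mt-Nd6 had 0.198, 0.151 and 0.173 counts in overexpression tumours 1, 2 and 3 and 0.177, 0.210 and 0.161 counts in control tumours 1, 2 and 3, so the groups overlapped in that ratio.

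The share of mt-Co1 within the 10 genes was 40.1% ± 1.93 in overexpression tumours and 43.5% ± 0.616 in control tumours, and that of mt-Nd2 was 4.15% ± 0.304 in overexpression tumours and 4.75% ± 0.223 in control tumours (SD, n = 3 each). Both were lower in every overexpression tumour, by gaps as small as 42.3% in overexpression tumour 2 against 42.8% in control tumour 3 for mt-Co1. For mt-Co1 this rested on mt-Co3 being in the sum: without mt-Co3, overexpression tumour 2 would lie above control tumour 3. The share of mt-Nd1 was higher in every overexpression tumour, at 11.6% ± 0.612 in overexpression tumours and 10.6% ± 0.0748 in control tumours (SD, n = 3 each). Its smallest gap was 10.9% in overexpression tumour 2 against 10.7% in control tumour 1. Shares of 1 sum are tied to each other. A higher share of mt-Co3, which held 10.7% in overexpression tumour 1 and 4.10% to 6.10% in the other 5, lowers the sum of the rest there. It lowers the share of each other gene too, and mt-Nd1 still had its highest share of the 6 tumours, 12.0%, in overexpression tumour 1.

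Summed by complex, the 5 complex I genes had 0.535, 0.569 and 0.710 counts per count of the 3 complex IV genes in overexpression tumours 1, 2 and 3, against 0.614, 0.659 and 0.652 in control tumours 1, 2 and 3. The ratio was 0.605 ± 0.0925 in overexpression tumours and 0.642 ± 0.0238 in control tumours (SD, n = 3 each), and the groups overlapped. It was below every control in overexpression tumours 1 and 2 and above every control in tumour 3, the same order as the summed share of counts.

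**Figure D4:**
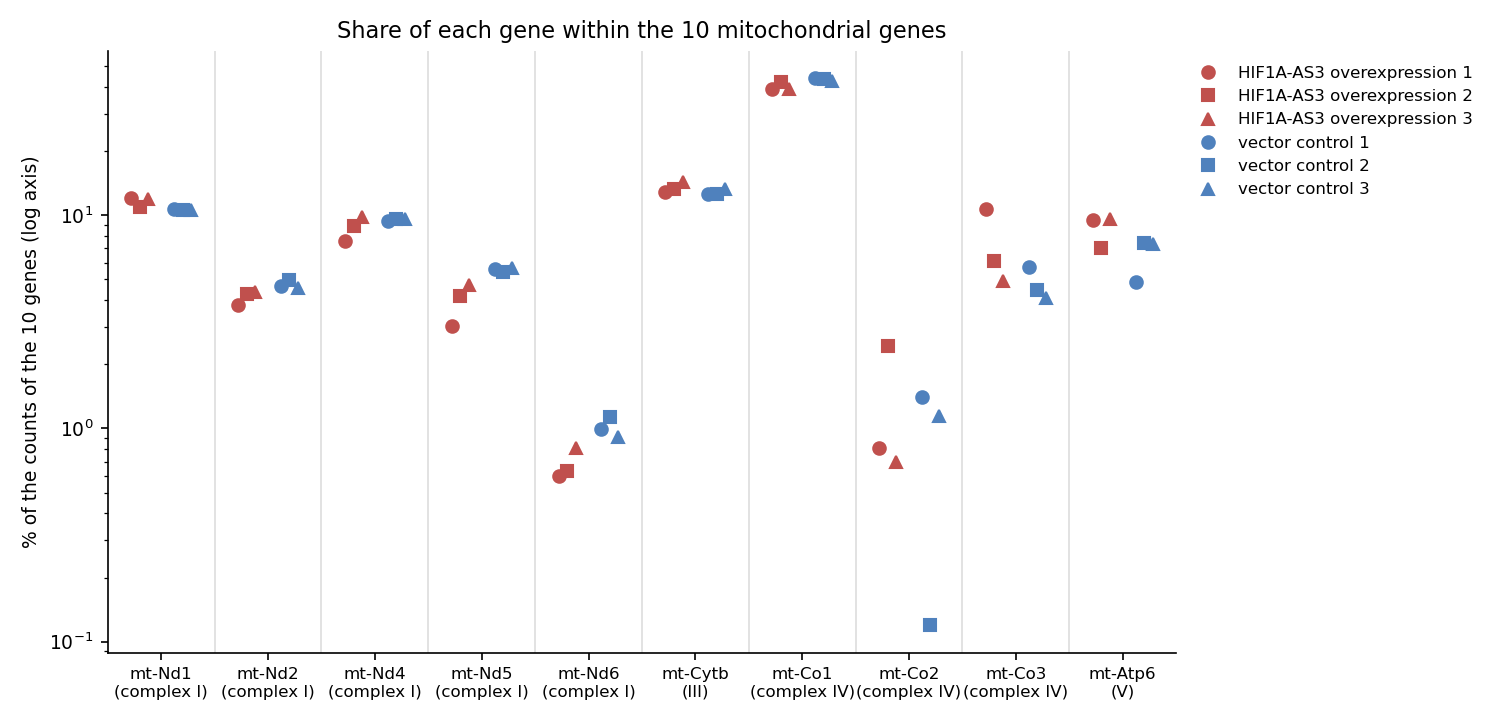
Percentage of the summed counts of the 10 genes that each gene held (vertical log axis), with overexpression tumours left of control tumours for each gene and symbols giving the replicate. The groups do not overlap for mt-Nd1, mt-Nd2, mt-Nd5, mt-Nd6 and mt-Co1; for mt-Nd5 the overexpression tumours lie at 3.03% to 4.69% and the control tumours at 5.41% to 5.68%.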

How the data were processed

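The authors deposited 1 table of estimated counts per gene and tumour, without normalization, per the file header. Its name points to salmon, with no version or annotation in the sources used here. Per the submitters' processing notes, tools listed without a role were edgeR, DESeq2, featureCounts 2.0.6, HISAT2 2.2.1 and Trimmomatic 0.39, and the build listed was mm10. All 6 columns were matched to tumours by name. The members, named by the rule that chose them, and the lists and tests were chosen with earlier results of these data known. Other genes were to be named by symbol. As 0 mouse IDs matched the name tables used here, 20 lists (nuclear respiratory chain, mitochondrial gene expression, cell type markers) were not analysed.

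Estimated counts were rounded. Genes were kept by filterByExpr, scaled by TMM and tested with edgeR 4.0.16 (robust quasi-likelihood, group only) in R 4.3.3, adjusted over all genes tested. Standard errors are the fold change over the square root of F. Log2 CPM used a prior count of 2. Alternatives were DESeq2 1.42.0, limma-voom 3.58.1, other scalings, filters and denominators, a replicate block and leaving out each tumour. The 2 most alike libraries, controls 1 and 3, had a mean chi-square per gene of 4.66, far beyond sampling noise. None was therefore taken as the same library sequenced again. Whether 2 libraries came from 1 tumour or 1 mouse cannot be told this way, as such libraries could also differ beyond sampling noise.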

Additional observations from a re-analysis of the deposited data

How the results depend on the processing

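The count of members that passed the threshold was 0 under all 15 alternatives, in which 0% to 0.222% of all genes passed (0 genes with the replicate block, without control replicate 1 or without overexpression replicate 3), so this count says little about the members. At an unadjusted p below 0.05 in edgeR it was 2 without overexpression replicate 2, where 20.5% of all genes were below it. Without overexpression replicate 3 it was 4, where 7.3% of all genes were below it. It was 0 otherwise, and the lowest adjusted p of a member was 0.14 in edgeR. Of 150 member fold changes recomputed, 134 kept their direction. Of the 16 that did not, 13 came with 1 tumour left out. Over all fits with 1 tumour left out mt-Nd1 ranged from -0.25 to 0.51, mt-Nd2 from -0.62 to 0.16, mt-Co1 from -0.47 to 0.19, mt-Co2 from -0.034 to 0.97, mt-Atp6 from -0.0091 to 0.89, mt-Nd4 from -0.59 to 0.27, mt-Cytb from -0.34 to 0.45, mt-Co3 from 0.35 to 0.88, mt-Nd5 from -1.02 to -0.082 and mt-Nd6 from -1.10 to -0.12. The other 3 changes of direction were those of mt-Nd4, at -0.13 with limma-voom, -0.15 with library totals only and -0.13 with the replicate block, against 0.03; the cause was not tested. The median over the members ranged from -0.41 to 0.27 with 1 tumour left out and was -0.07 with library totals only, where that of all genes was -0.21. The difference in share ranged from -0.588 to 0.173 percentage points with 1 tumour left out, and was -0.0743 without the 20 most abundant other genes in the denominator. That of mt-Nd6 within the members ranged from -0.398 to -0.271 with 1 tumour left out; as a percentage of the other complex I genes, another denominator chosen after the data were seen, as was leaving out mt-Co2, mt-Nd6 stood at 2.38% in overexpression and 3.33% in control tumours, a difference of -0.946. The complex I to complex IV ratio differed by -0.0896 to -0.00237 with 1 tumour left out. Same-numbered tumours did not vary together (correlations of deviations -0.09, -0.34 and -0.10 for numbers 1, 2 and 3), so numbers were not taken as pairs; with the replicate block, 0 of 10 members and 0% of all genes passed, and the members' median was -0.03 beside -0.01 for all genes. Alternatives that need gene names were not run. The counting intervals of the summed share were narrower than the differences between tumours of a group.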
